A study of Mus musculus with 8 samples.

Results

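Siglech, Ccr9, Klk1, Cox6a2, Pacsin1, Tcf4 and Runx2 are 7 genes by which mouse plasmacytoid dendritic cells are told from other leukocytes or on which their development depends. They were chosen by name, with earlier results of these data known. Each was read from the probe set that the platform annotates to that symbol alone. Where there are several, the one with the highest mean over the arrays was taken. Of the 7, 5 had such a probe set, among 19937 genes measured in this way, and each of the 5 had 1. Klk1 and Runx2 had none and were not analysed here. Siglech, Ccr9, Cox6a2 and Pacsin1 were read apart from Tcf4, which B cells and other leukocytes also express. They are called the specific members below, but whether other sorted cells also carry their RNA was not measured here.

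The study profiled spleen cells of adult mice that carry the human gene HGAL (GCET2, also GCSAM), an adaptor of germinal centre B cells, placed under the Sca1 (Ly-6E.1, the gene Ly6a) promoter. The 4 Sca1-HGAL samples were set against 4 Control samples from wild-type littermates, all on a CBAxC57BL/6J background. In both groups cells positive for CD22 and for B220 were sorted by flow cytometry, and total RNA of each sample was read on 1 array of the type Mouse Gene 1.0 ST (Affymetrix). The Sca1 promoter is not restricted to B cells, since blood stem cells and many other lymphocytes use it. The labels call the mice knock-in in one place and transgenic in another, and give neither founder lines nor sex. Whether the samples come from separate mice is not stated, and the p-values here reflect only how far these arrays differ from one another.

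Plasmacytoid dendritic cells are the dendritic cells that make large amounts of type I interferon when Tlr7 or Tlr9 meets viral or self nucleic acid. In the mouse they carry B220, the form of CD45 (Ptprc) that is also found on B cells, together with the lectin Siglec-H and, once mature, the chemokine receptor CCR9. The E protein TCF4, also called E2-2, drives and keeps their programme, and RUNX2 acts in their exit from bone marrow.

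The regions around the starts of Siglech and Ccr9 are shown because these genes had the most negative differences among the members, and that of Pacsin1 is shown beside them. They come from the RefSeq promoter table for GRCm38.p6, each covering 250 bases before to 50 after the gene start, and all 3 lie on the plus strand, at chr7:55767934-55768233, chr9:123766961-123767260 and chr17:27684989-27685288. Capitals mark 2 kinds of motif, the E-box CANNTG to which E proteins such as TCF4 bind, and the RUNX core TGTGGT or its reverse complement ACCACA.
Siglech: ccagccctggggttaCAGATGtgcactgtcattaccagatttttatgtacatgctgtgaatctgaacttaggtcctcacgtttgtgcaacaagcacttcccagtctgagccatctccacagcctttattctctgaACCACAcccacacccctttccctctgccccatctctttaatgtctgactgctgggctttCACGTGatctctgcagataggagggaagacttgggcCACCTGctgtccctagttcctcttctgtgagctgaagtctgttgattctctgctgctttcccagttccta
Ccr9: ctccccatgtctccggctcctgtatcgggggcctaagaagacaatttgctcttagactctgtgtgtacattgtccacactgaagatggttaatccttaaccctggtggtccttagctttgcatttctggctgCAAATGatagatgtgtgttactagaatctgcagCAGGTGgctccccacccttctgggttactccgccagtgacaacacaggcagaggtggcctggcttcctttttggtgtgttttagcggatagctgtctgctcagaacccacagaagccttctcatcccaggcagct
Pacsin1: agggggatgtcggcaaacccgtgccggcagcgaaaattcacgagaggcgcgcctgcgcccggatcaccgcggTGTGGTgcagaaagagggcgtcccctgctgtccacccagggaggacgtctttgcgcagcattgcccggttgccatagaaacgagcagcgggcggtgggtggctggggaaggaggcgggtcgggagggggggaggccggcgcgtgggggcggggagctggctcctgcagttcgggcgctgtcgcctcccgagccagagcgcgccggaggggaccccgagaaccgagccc
The Siglech window held 3 E-boxes, CAGATG at -235, CACGTG at -56 and CACCTG at -20 from the gene start, and 1 RUNX core at -115. The Ccr9 window held 2 E-boxes, CAAATG at -118 and CAGGTG at -85, and 0 RUNX cores. The Pacsin1 window, with 71.7% G and C bases, held 0 E-boxes and 1 RUNX core at -178. Both strands were searched, and no E-box in these windows shared bases with a RUNX core. Of 27025 promoter windows of the same length, 72.1% held CANNTG, 20% held CAGGTG or its reverse complement CACCTG, and 16.9% held a RUNX core. These matches describe the letters of the windows alone, and no binding was measured in these samples.

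The arrays were of like brightness, with a median deposited intensity of 145 to 151 over all probe sets. Their mean correlation was 0.985 to 0.989 with the others of their group and 0.983 to 0.987 with the other group. Sca1-HGAL 3 was as close to the Control arrays as to its own group, at 0.987 for each. Controls 2 and 4 stood apart in sex-linked genes. Xist, which silences one X chromosome in female cells, was at log2 12.17 and 12.18 there, against 5.28 to 5.65 on the other 6 arrays. The Y-linked Eif2s3y was at 4.22 and 3.96 there and at 10.21 to 10.61 on the others. All 4 Sca1-HGAL arrays thus shared the low Xist level of Controls 1 and 3. The sorted cells carried the genes of B cells in both groups, with Cd79a, a signalling chain of the antigen receptor, at 13.29 ± 0.03 on Sca1-HGAL and 13.40 ± 0.07 on Control arrays (SD, n = 4 each). Gcsam, the mouse counterpart of HGAL, was at 6.47 ± 0.24 on Sca1-HGAL and 6.76 ± 0.33 on Control arrays (adjusted p = 0.618), and its probe set is not designed for the human transgene, so it does not check the labels.

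In what follows, levels are log2 of the deposited intensity. Differences are Sca1-HGAL minus Control on the log2 scale, with the standard error (SE) and the p-value of limma, adjusted by Benjamini-Hochberg over 21640 probe sets. The threshold is an adjusted p under 0.05. The exact permutation test is two-sided over all 70 assignments of the 8 arrays and cannot give a p below 0.0286. With total RNA of sorted cells, fewer plasmacytoid dendritic cells among those sorted and less RNA of these genes per cell cannot be told apart. Neither can be told apart from a difference in RNA of these genes in other sorted cells.

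No member passed the threshold, while 1 of all 21640 probe sets did (0.00462%), that of St3gal5. The 4 specific members all had lower mean levels on Sca1-HGAL than on Control arrays, and Tcf4 had a higher one. At an unadjusted p under 0.05, 2 of the 5 members were lower, Siglech and Ccr9, beside 4.06% of all probe sets, and 0 were higher, beside 5.53%. The same 2 members lay wholly lower on the 4 Sca1-HGAL arrays than on the 4 Control arrays, as did 2.3% of all probe sets. No member lay wholly higher, as 3.15% of all probe sets did. Because the members were chosen with earlier results of these data known, these shares are no independent test of them. The 4 specific members had a median difference of -0.43, and all 19937 genes one of 0.02.

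**Figure D1:**
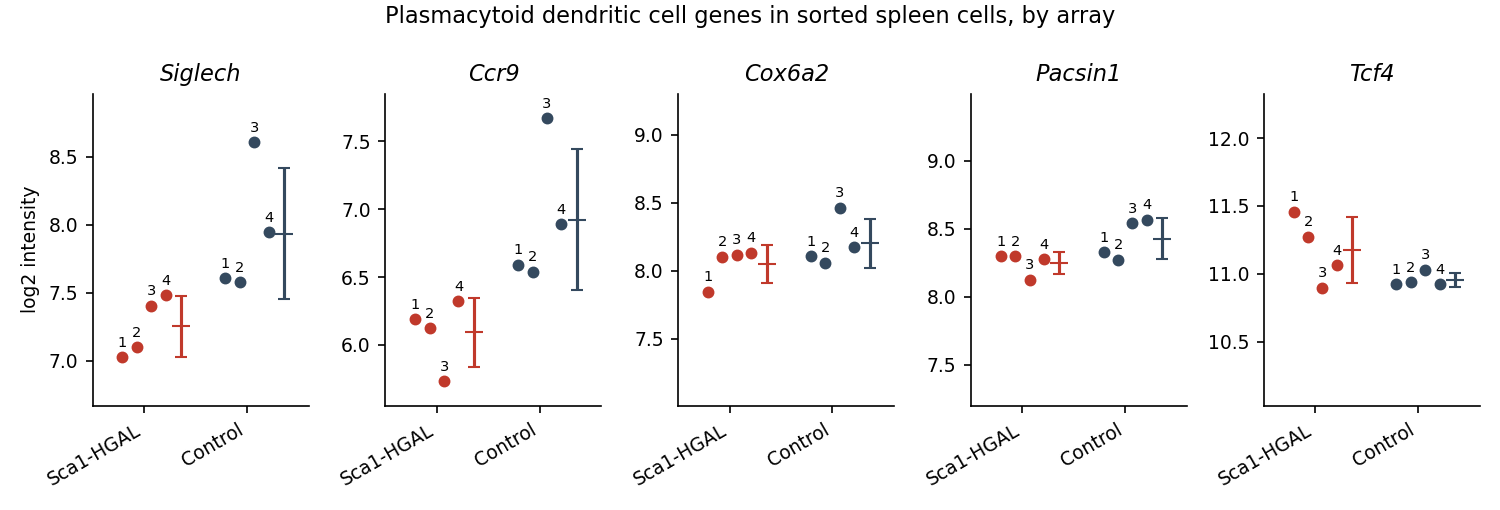
Log2 intensity of the 5 measured genes on each array, with Sca1-HGAL left of Control. Points are arrays, numbered by replicate, and bars are group means with their SD (n = 4). Sca1-HGAL points of Siglech and Ccr9 all lie below the Control points, and Control 3 is highest for Siglech, Ccr9 and Cox6a2.

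Siglech encodes Siglec-H, an endocytic sialic acid-binding lectin that signals through the adaptor DAP12 and is the usual surface marker of mouse plasmacytoid dendritic cells. Its level was 7.02, 7.10, 7.40 and 7.48 on Sca1-HGAL arrays 1 to 4, against 7.61, 7.58, 8.61 and 7.95 on Control arrays 1 to 4. The groups did not overlap, with 0.096 between the highest Sca1-HGAL array and the lowest Control array, and Control 3 stood highest. The means were 7.25 ± 0.22 on Sca1-HGAL and 7.94 ± 0.48 on Control arrays (SD, n = 4 each). The difference was -0.68 (SE 0.21, 95% interval -1.15 to -0.21, p = 0.00900, adjusted p = 0.342, exact permutation p = 0.0286), a level 1.61-fold higher in Control. Without Control 3 the difference was -0.46, and without the 2 arrays with high Xist it was -0.86. The deposited intensity of Siglech was 130 to 179 on Sca1-HGAL arrays, near the array medians of 145 to 151. Without detection calls, how much of this is background was not tested.

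Ccr9 encodes the receptor for the chemokine CCL25, which guides cells to the small intestine and the thymus and marks mature plasmacytoid dendritic cells. Its level was 6.19, 6.12, 5.73 and 6.32 on Sca1-HGAL arrays, against 6.59, 6.54, 7.67 and 6.89 on Control arrays. The groups again did not overlap, with a gap of 0.22, and Control 3 was again highest. The means were 6.09 ± 0.25 on Sca1-HGAL and 6.92 ± 0.52 on Control arrays (SD, n = 4 each). The difference was -0.83 (SE 0.23, 95% interval -1.34 to -0.32, p = 0.00488, adjusted p = 0.294, exact permutation p = 0.0286), a level 1.78-fold higher in Control. Ccr9 was dim, the values carry no detection calls, and the size of its difference is less sure for that reason. Without Control 3 the difference was -0.58, and without the 2 arrays with high Xist it was -1.04.

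By size of difference Ccr9 was at rank 77 and Siglech at rank 141 of 19937 genes. By p they were at ranks 330 and 520. Both belong to a list chosen with earlier results of these data known, so the ranks are descriptions only. By mean level Ccr9 lay above 32.7% of these genes, Siglech above 55.9%, Cox6a2 above 63.8% and Pacsin1 above 66.8%.

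Pacsin1 encodes an F-BAR protein that bends membranes in endocytosis, known from neurons and, among leukocytes, from plasmacytoid dendritic cells. Its level was 8.30, 8.30, 8.12 and 8.27 on Sca1-HGAL arrays, against 8.33, 8.27, 8.54 and 8.57 on Control arrays. Controls 3 and 4 were highest, while Control 1 lay just above and Control 2 among the Sca1-HGAL values, and the groups overlapped. The means were 8.25 ± 0.08 on Sca1-HGAL and 8.43 ± 0.15 on Control arrays, with a difference of -0.18 (SE 0.08, 95% interval -0.36 to 0.0059, p = 0.0564, adjusted p = 0.534, exact permutation p = 0.114).

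Cox6a2 encodes the heart and muscle form of a cytochrome c oxidase subunit, which plasmacytoid dendritic cells also express. Its level was 7.84, 8.10, 8.12 and 8.13 on Sca1-HGAL arrays, against 8.11, 8.06, 8.46 and 8.17 on Control arrays. Apart from a low Sca1-HGAL 1 and a high Control 3, the arrays lay together and the groups overlapped. The means were 8.05 ± 0.14 on Sca1-HGAL and 8.20 ± 0.18 on Control arrays. The difference was -0.15 (SE 0.10, 95% interval -0.38 to 0.07, p = 0.165, adjusted p = 0.684, exact permutation p = 0.343), and without Control 3 it was -0.06.

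Tcf4, the E protein of the programme, had a higher mean level on Sca1-HGAL than on Control arrays. Its level was 11.46, 11.27, 10.90 and 11.07 on Sca1-HGAL arrays, against 10.92, 10.94, 11.03 and 10.92 on Control arrays. Sca1-HGAL 1 and 2 were highest and Sca1-HGAL 3 was lowest of all 8 arrays, so the groups overlapped, and the Control arrays lay close together. The means were 11.17 ± 0.24 on Sca1-HGAL and 10.95 ± 0.05 on Control arrays, with a difference of 0.22 (SE 0.11, 95% interval -0.02 to 0.46, p = 0.0709, adjusted p = 0.560, exact permutation p = 0.171). Without Sca1-HGAL 1 the difference was 0.13, and without Sca1-HGAL 3 it was 0.31.

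**Figure D2:**
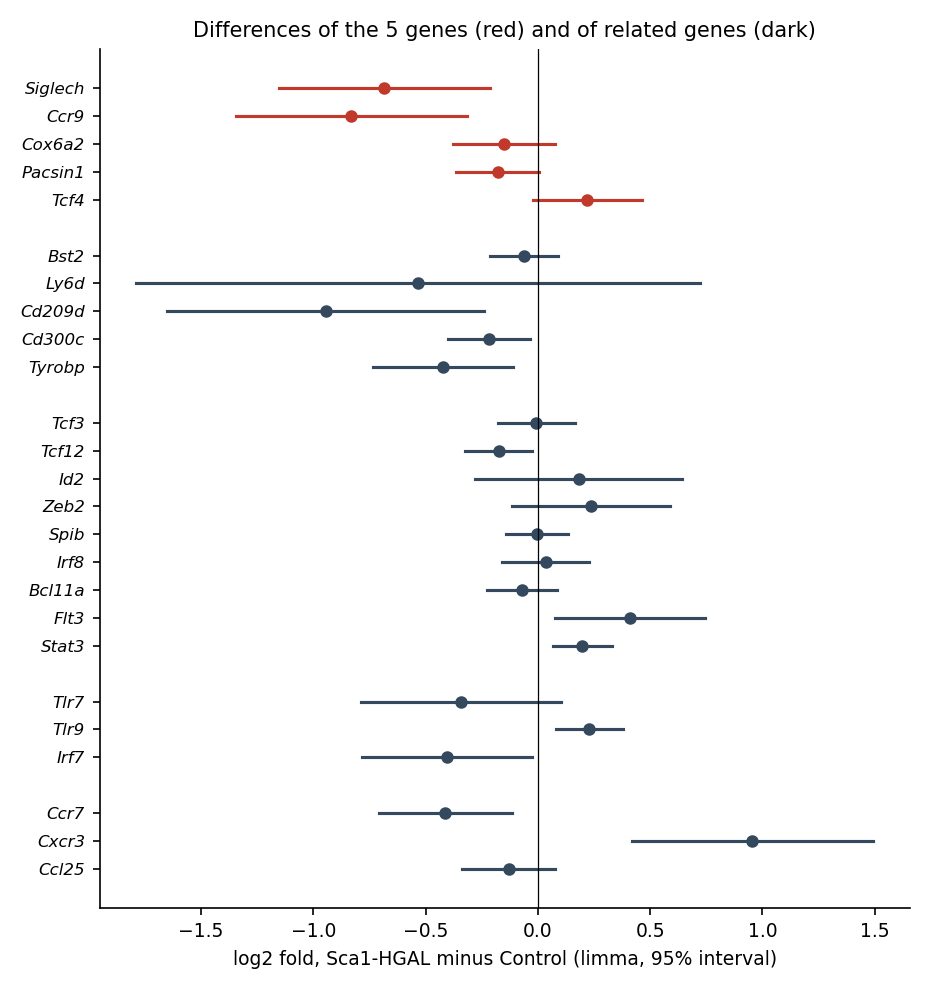
Log2 difference, Sca1-HGAL minus Control, of the 5 measured members (red) and of related genes described further on (dark), as points with unadjusted 95% intervals from limma. The intervals of Siglech and Ccr9 lie below 0, and those of Pacsin1, Cox6a2 and Tcf4 include 0.

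Averaged over the 4 specific members, the profile over the arrays was led by Control 3. Centred on each gene's own mean, the 4 averaged -0.30, -0.24, -0.30 and -0.09 on Sca1-HGAL arrays 1 to 4, against 0.02, -0.03, 0.68 and 0.25 on Control arrays 1 to 4. Control 3 and Control 4 carried the high end, and Controls 1 and 2 lay nearer to the Sca1-HGAL arrays. Siglech and Ccr9 had a Pearson r of 0.90 and a Spearman rho of 0.90 over the 8 arrays, and r was 0.71 over the 7 without Control 3. Centred within each group, r was 0.78. Cox6a2 had r = 0.89 with Siglech (0.90 within groups) and 0.74 with Ccr9 (0.65 within groups). Pacsin1 had r = 0.88 with Ccr9 (0.77 within groups), 0.73 with Siglech (0.50 within groups) and 0.56 with Cox6a2 (0.37 within groups). Without the 2 arrays farthest from the median of the first gene named, r was 0.96 for Ccr9 and Siglech, 0.77 for Ccr9 and Pacsin1, 0.54 for Ccr9 and Cox6a2, 0.49 for Cox6a2 and Siglech, 0.59 for Cox6a2 and Pacsin1 and -0.08 for Pacsin1 and Siglech. Every pair of the 4 genes was thus positive over the 8 arrays and within groups. The r without 2 arrays depends on which gene sets the arrays left out, so it cannot decide whether all 4 share a profile. Tcf4 had r = -0.54 with Siglech, and -0.20 within groups. With Ccr9 it had r = -0.23, and the sign turned within groups, at 0.41. These are descriptions over 8 arrays that share their 2 groups and, for the positive values, the high Control 3.

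**Figure D3:**
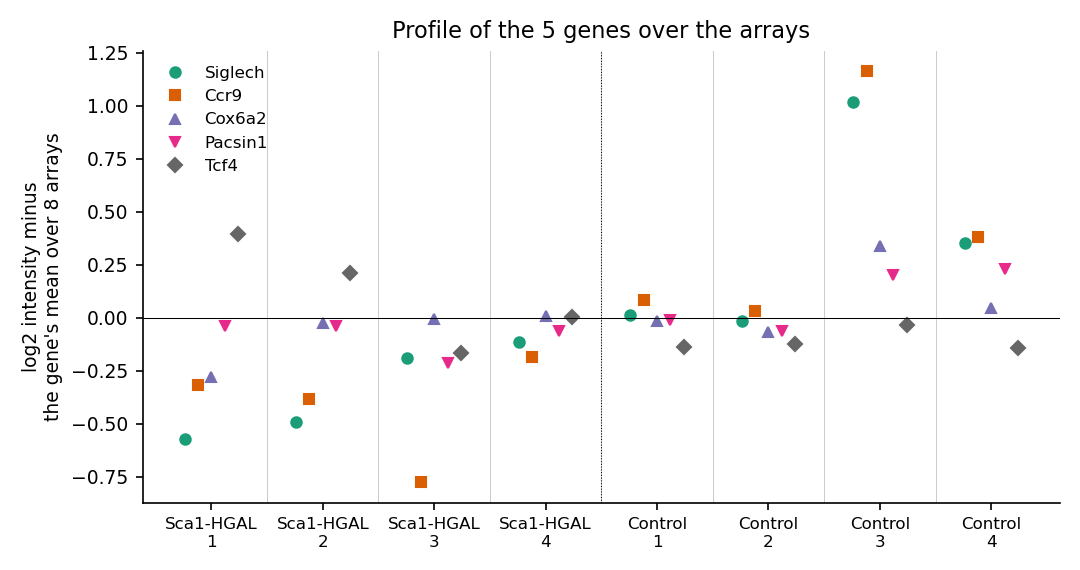
Log2 intensity of each gene minus its mean over 8 arrays, with Sca1-HGAL arrays left of the dotted line and Control arrays right of it. Siglech and Ccr9 peak on Control 3, while Tcf4 is highest on Sca1-HGAL 1 and 2.

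Genes with the most similar profiles were ranked by Pearson r over the 8 arrays, among 3298 genes with a mean of at least log2 6 and a range of at least 0.5. For Siglech the first 3 were immunoglobulin kappa variable genes, all on chromosome 6, with r of 0.98, 0.96 and 0.95. They were followed by Gabarapl1 (0.93), an autophagy gene, Tmem108 (0.93), the mitochondrial gene Chchd10 (0.93), Tet1 (0.93), a DNA demethylation enzyme, and Cd209a (0.92), a lectin of dendritic cells. For Ccr9 they were Gabarapl1 (0.96), Tet1 (0.95), Bst1 (0.92), Tbc1d8 (0.92), Tmem26 (0.91), Nsun3 (0.91), Vpreb3 (0.90) and Ube2e3 (0.90). The 2 sets of 8 shared 2 genes, Gabarapl1 and Tet1, which is 25% of each. Ccr9 was itself at rank 13 for Siglech, and Siglech at rank 9 for Ccr9.

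Gabarapl1 was at 7.15, 7.11, 7.11 and 7.19 on Sca1-HGAL arrays, against 7.48, 7.30, 7.82 and 7.51 on Control arrays, without overlap (adjusted p = 0.249). Cd209a was at 6.98, 6.82, 7.04 and 7.39 on Sca1-HGAL arrays, against 7.41, 7.41, 8.71 and 7.30 on Control arrays, with overlap (adjusted p = 0.505). In both, as in Siglech and Ccr9, Control 3 was highest. Choosing genes by r with Siglech or Ccr9 over all arrays favours a high Control 3 and groups that lie apart. With profiles centred within each group, 3 of the 8 genes stayed among the first 8 for each of the 2 members.

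Around the members, 11 lists of related genes held 115 genes, of which 102 were measured. None passed the threshold. At an unadjusted p under 0.05, 6 were lower and 5 higher, and the median difference was -0.0027, against 804 lower, 1095 higher and a median of 0.02 among all 19937 genes. On Sca1-HGAL arrays 4 of the 102 lay wholly lower than on Control arrays and 4 wholly higher. Among all 19937 genes 473 lay wholly lower and 619 wholly higher. Of all probe sets, 4.06% were lower and 5.53% higher at an unadjusted p under 0.05. Counts for single lists below are to be read beside these shares.

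Among other surface and programme genes of these cells, 2 of 19 measured had an unadjusted p under 0.05, both lower, and the median difference was -0.02. Cd209d, a lectin of the same family as Cd209a, was at 5.70, 5.96, 5.69 and 6.71 on Sca1-HGAL arrays, against 7.07, 6.45, 7.84 and 6.50 on Control arrays. Control 3 was highest once more, but Sca1-HGAL 4 lay above Controls 2 and 4, and the difference was -0.95 (SE 0.32, adjusted p = 0.379). Cd300c, an immunoglobulin-like receptor, had a difference of -0.22 (SE 0.08, adjusted p = 0.449) without overlap. Bst2, the antigen of the PDCA-1 antibody, was at 8.15 ± 0.06 on Sca1-HGAL and 8.21 ± 0.10 on Control arrays, a difference of -0.06 (SE 0.07, adjusted p = 0.828). Ly6d varied widely within both groups, at 10.15 ± 0.92 on Sca1-HGAL and 10.68 ± 1.11 on Control arrays (adjusted p = 0.815). Klra17, a lectin receptor gene, had -0.41 (adjusted p = 0.634) and Atp1b1, a sodium pump subunit gene, -0.47 (adjusted p = 0.543), both with overlap.

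Among 14 transcription factors and antagonists of the programme, 0 had an unadjusted p under 0.05 on the lower side and 2 on the higher side, with a median of 0.08. Stat3, a signal transducer of cytokine receptors, had a difference of 0.20 (SE 0.06, adjusted p = 0.330) without overlap. Flt3, the receptor whose ligand drives dendritic cell development, had 0.41 (SE 0.15, adjusted p = 0.419) with overlap. Spib, Irf8 and Bcl11a, factors used by plasmacytoid dendritic cells and by B cells alike, had -0.0029, 0.04 and -0.07, and Spib changed sign after a second quantile normalisation. Ikzf1, a zinc finger factor of lymphoid cells, had -0.10 (adjusted p = 0.604) without overlap. Zeb2 had 0.24 (adjusted p = 0.683) and Batf3, a factor of conventional dendritic cells, 0.11.

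Of 6 E protein and Id genes, 1 had an unadjusted p under 0.05. It was Tcf12, an E protein related to TCF4, with -0.18 (SE 0.07, adjusted p = 0.449). Tcf3, the E protein of B-cell development, had -0.0065 (0.018 after a second quantile normalisation), and Id2, an inhibitor of E proteins, 0.18 (adjusted p = 0.831). The 3 other genes of the RUNX group, Runx1, Runx3 and their partner Cbfb, had -0.07, -0.07 and -0.0034, each with an unadjusted p above 0.05, and Cbfb changed sign after a second quantile normalisation.

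Of 10 measured genes of nucleic acid sensing and interferon induction, 1 was lower and 1 higher at an unadjusted p under 0.05. Tlr9, the endosomal receptor for DNA, was at 11.83 ± 0.11 on Sca1-HGAL and 11.60 ± 0.02 on Control arrays without overlap, a difference of 0.23 (SE 0.07, adjusted p = 0.315). B cells also express Tlr9. Irf7, the factor that induces interferon alpha genes, had -0.41 (SE 0.17, adjusted p = 0.498), with its highest levels, 8.89 and 9.27, on Controls 2 and 4, the arrays with high Xist. Tlr7, an X-linked receptor for RNA, had -0.34 (adjusted p = 0.634), and Control 2 and Control 4 were highest as well, at 9.96 and 10.31. None of 7 type I interferon and receptor genes had an unadjusted p under 0.05, and their median was 0.01.

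Among 9 measured genes of the Siglec family and its adaptors, Tyrobp, which encodes DAP12, the partner of Siglec-H, was alone at an unadjusted p under 0.05. It was at 9.16, 8.70, 8.66 and 9.24 on Sca1-HGAL arrays, against 9.19, 9.31, 9.41 and 9.53 on Control arrays. Sca1-HGAL 2 and 3 were lowest, and Sca1-HGAL 4 lay just above Control 1. The difference was -0.42 (SE 0.14, adjusted p = 0.370). Tyrobp is also used by NK cells and macrophages. Cd22, the Siglec used in the sort, had 0.04, and Siglecg, a Siglec of B cells, -0.09.

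In the families of Klk1, Cox6a2 and Pacsin1, 1 of 29 measured genes had an unadjusted p under 0.05. It was the kallikrein Klk1b16, with 0.26 (adjusted p = 0.443) at a dim level of 4.01 ± 0.22 on Sca1-HGAL and 3.75 ± 0.05 on Control arrays. Kallikrein genes are close copies of one another, so their probe sets may share signal. Cox6a1, the widely expressed paralogue of Cox6a2, had -0.18 (SE 0.08, adjusted p = 0.532) without overlap, close in size to Cox6a2. Pacsin2 had -0.07 and Pacsin3 0.06.

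Among 6 measured genes of the chemokine axis of these cells, 1 was lower and 1 higher at an unadjusted p under 0.05. Cxcr3, a receptor for interferon-induced chemokines, was at 8.40, 9.44, 8.03 and 8.65 on Sca1-HGAL arrays, against 7.62, 7.56, 7.77 and 7.77 on Control arrays. Every Sca1-HGAL array lay above every Control array, and the difference was 0.96 (SE 0.24, adjusted p = 0.247). Ccr7, a homing receptor for lymph nodes, had -0.41 (SE 0.13, adjusted p = 0.358) with overlap. Ccl25, the ligand of CCR9, had -0.13 in the probe set with the higher mean (adjusted p = 0.710) and -0.21 in the other (adjusted p = 0.413).

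Markers of other cells that the sort could hold were set beside the members. CD22 is a B-cell lectin, so a gate on CD22 together with B220 is meant to leave out T cells, NK cells, macrophages and neutrophils. How far plasmacytoid dendritic cells pass the CD22 gate, and how pure the sorted cells were, was not measured here. The summed intensity of the 4 specific members was 748 to 849 on Sca1-HGAL and 860 to 1320 on Control arrays, so the Sca1-HGAL mean was 77.3% of the Control mean. The 1320 was on Control 3. Cox6a2 and Pacsin1, whose groups overlapped, weighed most in this sum, at 230 to 281 and 279 to 315 on Sca1-HGAL arrays. Siglech and Ccr9 were at 130 to 179 and 53 to 80 there. The sum of 9 B-cell genes was 69080 to 71797 on Sca1-HGAL and 73367 to 75064 on Control arrays, also without overlap, at 95.5% of the Control mean. The sum of 10 marginal zone B-cell genes was 11852 to 14153 on Sca1-HGAL and 15163 to 18402 on Control arrays, at 79.3%. The sums of the specific members and of these 2 B-cell lists thus lay apart between the groups, while sums of all other cell lists overlapped between the groups.

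For 10 conventional dendritic cell genes the sum was 1468 to 1942 on Sca1-HGAL and 1286 to 1615 on Control arrays, at 122% of the Control mean. Its members went both ways, with Sirpa at 0.65 (adjusted p = 0.198) and Itgax at 0.48 (adjusted p = 0.230), and with Clec9a at -0.34 (adjusted p = 0.295) and Cd209a at -0.65. For 12 macrophage and monocyte genes the sum stood at 111% of the Control mean, and for 10 T cell genes at 114%. For 8 NK cell genes it stood at 93.6%, for 7 plasma cell genes at 96.2% and for 10 neutrophil genes at 170%. Of the 8 NK cell genes, 7 had a negative difference and 1 a positive one. Gzma had -0.77 (adjusted p = 0.272), Klrd1 -0.60 (adjusted p = 0.562) and Ncr1 -0.46 (adjusted p = 0.543), all with overlap. Klrd1, Ncr1 and the mean log2 of the NK cell list were highest on Control 3. The sum of that list was highest on Sca1-HGAL 1, at 1300.7 against 1266.5 on Control 3. Among the Controls alone, Control 3 also had the highest mean log2 of the conventional dendritic cell, T cell, neutrophil and plasma cell lists. Adgre1, which encodes the macrophage antigen F4/80, was at 8.67, 9.36, 8.55 and 8.61 on Sca1-HGAL arrays, against 7.83, 8.14, 7.54 and 7.63 on Control arrays. Its groups did not overlap, and the difference was 1.01 (SE 0.19, adjusted p = 0.122, and 0.031 with the replicate block). That block pairs arrays by replicate number, although deviations of same-numbered arrays correlated only at -0.18 to 0.03. Of the 12 macrophage and monocyte genes, Adgre1 was the one with an unadjusted p under 0.05, and the median of the list was -0.0044.

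All 10 neutrophil genes had a positive difference (median 0.43). An unadjusted p under 0.05 was reached by 6 of them, beside 5.53% of all probe sets on the higher side. None passed the threshold. Their sum was 896 to 2828 on Sca1-HGAL and 784 to 1411 on Control arrays, with the highest value on Sca1-HGAL 1. Without that array, left out after the values were seen, the Sca1-HGAL mean was 132% of the Control mean in place of 170%. The part of any of these cells in the values of the members was not tested. No marker of any list was at 0, since the lowest deposited intensity was 4.94.

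**Figure D4:**
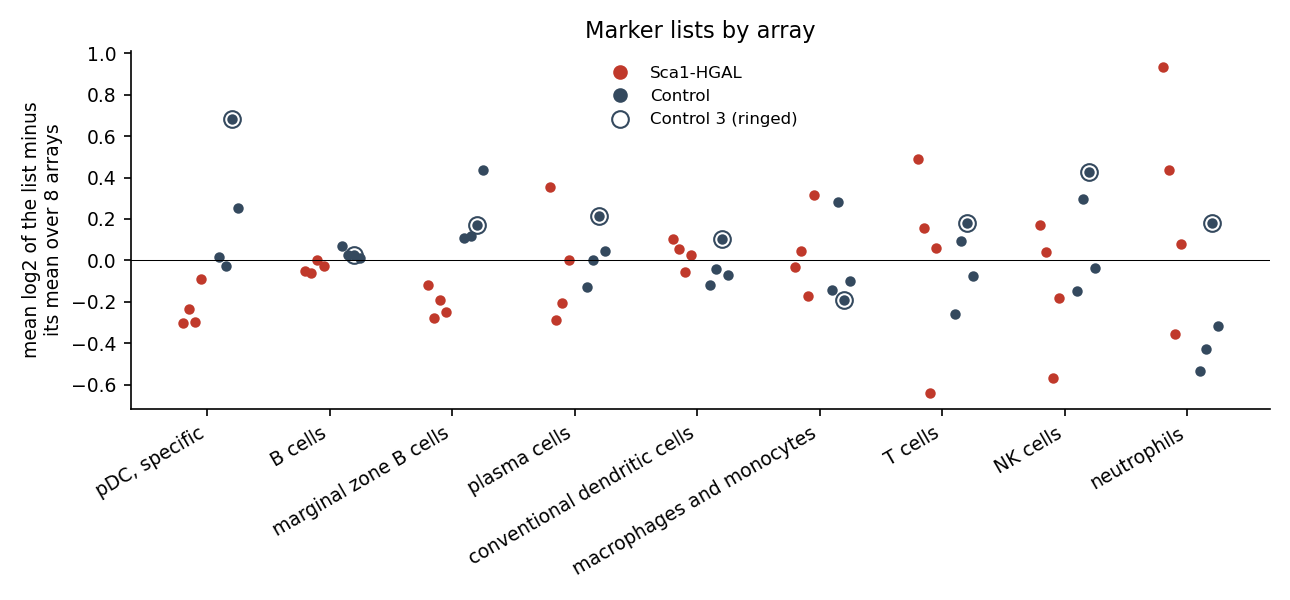
Mean log2 of each marker list minus its mean over 8 arrays, with the 4 Sca1-HGAL arrays left of the 4 Control arrays and Control 3 ringed. Specific plasmacytoid dendritic cell genes, B-cell genes and marginal zone B-cell genes are lower on all Sca1-HGAL arrays. Control 3 is highest for the specific plasmacytoid dendritic cell genes and for the NK cell genes. Among the Control arrays alone, it is also highest for conventional dendritic cell, T cell, neutrophil and plasma cell genes. It is not the highest Control for B-cell, marginal zone B-cell or macrophage and monocyte genes.

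The direction of each member was the same in all 18 alternative settings. Siglech ranged from -0.86 to -0.46 and Ccr9 from -1.04 to -0.58, both with an unadjusted p under 0.05 in 18 of 18. Their adjusted p ranged over 0.283 to 0.644 and 0.243 to 0.556. Cox6a2 ranged from -0.24 to -0.06 and was under 0.05 in 0 of 18. Pacsin1, at -0.23 to -0.13, and Tcf4, at 0.13 to 0.31, were each under 0.05 in 2 of 18.

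**Figure D5:**
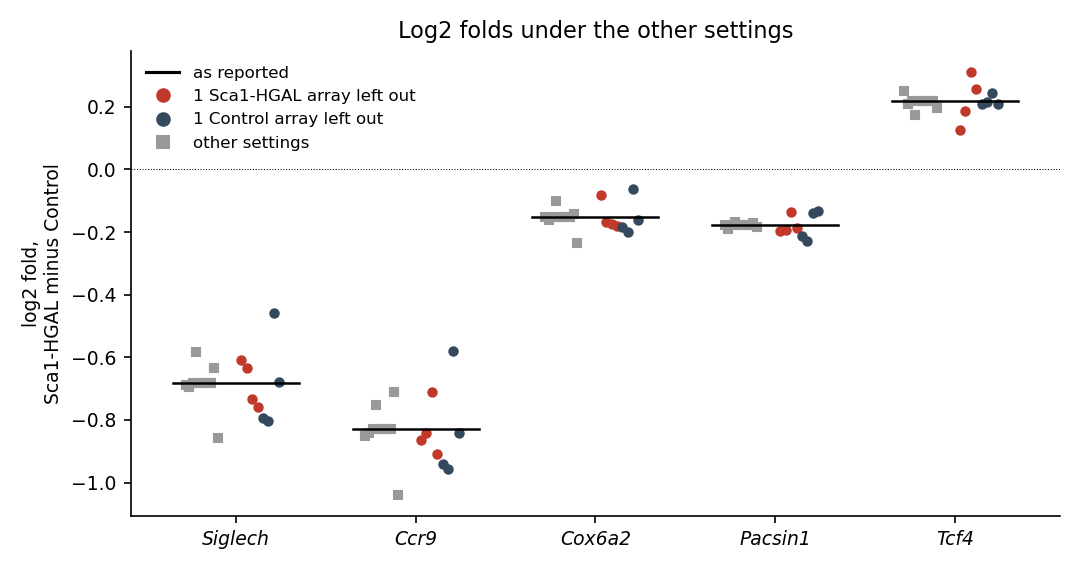
Log2 difference, Sca1-HGAL minus Control, of each measured member under the 18 alternative settings, with the reported value marked. Siglech and Ccr9 stay at -0.46 or lower and Tcf4 stays above 0 in every setting.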

How the data were processed

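Sorted spleen cells of 4 Sca1-HGAL and 4 Control samples were measured on 1-colour arrays, grouped and numbered by their titles. The deposited table holds linear intensities, for which the submitters' processing notes name RMA. Its version is not given in the sources used here, nor is a genome build. RMA draws arrays to a common distribution and shrinks differences of dim probe sets. Log2 values had been assumed in the design, so log2 of each intensity was taken here, without pseudocount or filter.

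Of 34760 probe sets, 21640 carried 1 gene symbol (19937 genes, 954 with several probe sets), 1321 several, and 11799 were not named. Groups were compared with limma 3.58.1 (R 4.3.3; linear model on group, empirical Bayes), which was tested on simulated data. Precision is limited by 4 arrays a group. Replicate numbers did not pair the samples: deviations of same-numbered arrays correlated at -0.18 to 0.03. The labels give no batch.

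The members and lists were chosen with earlier results of these data known. Of 197 list genes, 181 were measured. Named were the members, up to 4 genes per list by smallest p, a fixed set, and the 8 genes most like Siglech and Ccr9, passing over unnamed predicted genes; St3gal5 was named after its value was seen. As alternatives, all rows were tested, probe sets were averaged per gene, dim ones under log2 6 were left out, and a pseudocount of 16, median centring, another quantile normalisation, array weights, a replicate block, a trended robust prior, leaving out each array, and leaving out the 2 arrays with high Xist were tried. Gene identifiers and promoter sequences are from RefSeq (GRCm38.p6), where Cox6a2 had no entry.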

Additional observations from a re-analysis of the deposited data

Results flagged for a closer look

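In 13 of 228 sets of 4 replicate values, 1 array lay far from the other 3, and chance flags about 1 in 20 groups, or 11.4 here. Of these, 4 sets belong to genes chosen only for varying with Siglech or Ccr9; without such genes the count was 9 of 184, where chance gives 9.2. Highest and lowest are meant here within the group of 4 arrays. Of the members, Sca1-HGAL 1 was lowest for Cox6a2 at log2 7.84 (next 8.10) and Sca1-HGAL 3 for Pacsin1 at 8.12 (next 8.27). Control 3 was highest of the Controls for Tcf4 at 11.03 (next 10.94). Sca1-HGAL 1, 2 and 4 lay above it, at 11.46, 11.27 and 11.07. The 4 sets of genes ranked as like Siglech or Ccr9 were Cd209a at 8.71, H1f3 at 6.95, Ube2e3 at 8.25 and an immunoglobulin kappa variable gene at 10.03, each highest on Control 3, where Siglech and Ccr9 are highest too, which the way they were chosen favours. In the marker lists of other cells, Sca1-HGAL 1 was highest of its group for the NK cell gene Gzma at 6.41. Controls 2, 3 and 4 were higher, at 7.49, 7.21 and 6.74. Sca1-HGAL 2 was highest for the macrophage gene Adgre1 at 9.36. Sca1-HGAL 4 was highest of its group for Csf1r at 7.85, below Control 2 at 8.11. Sca1-HGAL 2 was highest for Cd22, one of the sorting markers, at 12.89, Control 1 was lowest for the plasma cell gene Txndc5 at 9.10, and Control 4 was highest for Pik3r4, of the marginal zone list, at 10.65. The cause of these single high or low arrays was not tested.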

How the results depend on the processing

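Across 18 alternative settings, 0 members passed the threshold in any, and 2 or 3 members had an unadjusted p under 0.05 or groups that did not overlap. The number of probe sets past the threshold, 1 as reported, was 12 with array weights, 6 with the replicate block, 2 with probe sets averaged per gene, 2 without the arrays with high Xist, and 1 to 40 when 1 array was left out, with 40 without Sca1-HGAL 3. With the replicate block the adjusted p was 0.283 for Siglech and 0.454 for Ccr9, and no member's call changed. The surrounding lists had 11 genes at an unadjusted p under 0.05 and 9 to 19 when 1 array was left out, with 19 without Sca1-HGAL 1. Of the 8 genes most like each of Siglech and Ccr9, 3 and 3 stayed with the correlation within groups. Outside the members, 4 named genes passed the threshold in 1 setting each, namely Adgre1 with the replicate block (adjusted p = 0.031), Sirpa (0.028) and Slamf7 (0.045) without Sca1-HGAL 3, and Asb2 with array weights (0.049). Differences near 0 changed sign. After the second quantile normalisation they were 0.020 for Cbfb, 0.018 for Spib, 0.018 for Tcf3 and 0.026 for Ptprc. With array weights Spib had 0.0033 and Ptprc 0.0048. Without the arrays with high Xist they were 0.0078 for Cbfb, 0.016 for Ifna4, 0.016 for Pacsin2, 0.0042 for Bst2 and 0.0040 for Spib. Xist and Eif2s3y had large differences as reported, -3.31 and 3.15, and 0.055 and -0.011 in that setting. The arrays left out there are those with high Xist and low Eif2s3y. Leaving out 1 array gave -0.029 to 0.016 for Cbfb, -0.035 to 0.029 for Spib, -0.043 to 0.043 for Tcf3, -0.034 to 0.039 for Ptprc, -0.093 to 0.043 for Ifna4, -0.019 to 0.079 for Id4, -0.0069 to 0.084 for Ifnar2, -0.024 to 0.12 for Irf8 and -0.029 to 0.064 for Cd22. The cause of the sign changes near 0 was not tested. With 4 arrays a group and no detection calls, dim genes such as Ccr9 are the least sure.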
